A study of Homo sapiens with 2 samples.

Results

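The genes described here encode 10 enzymes of de novo nucleotide synthesis: PPAT, GART, PFAS, PAICS, ADSL, ATIC, IMPDH1, IMPDH2 and GMPS of the purine route, and CAD of the pyrimidine route. They were chosen by symbol in the table of isoform FPKM, where they hold 29 of 63236 isoforms and are 10 of 26257 gene symbols. RNA was measured in HCT-116, a long-established line of human colorectal carcinoma cells, as 1 library of cells given lysophosphatidic acid (LPA, a lipid mediator found in serum whose receptors couple to G proteins) at 10 µM for 24 h after serum starvation, and as 1 library of cells without treatment. Both titles carry the number 3, and whether the control cells were also starved of serum is not given in the sources used here. With 1 library per condition no difference below has a replicate check or a p-value, and every comparison is between these 2 libraries. All 10 genes passed the filter of a mean of at least 1 FPKM (a fragment number scaled by transcript length and library size) over both libraries, as did 11688 genes in all.

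De novo purine synthesis builds the purine ring stepwise on phosphoribosyl pyrophosphate (PRPP), from glutamine, glycine, aspartate, bicarbonate and formyl groups carried by folate, and ends at inosine monophosphate (IMP), from which AMP and GMP branch off. Pyrimidine synthesis instead makes the ring first, from carbamoyl phosphate and aspartate, and then adds the ribose phosphate. Proliferating cells, tumour cells among them, rely on both routes for the nucleotides of RNA and DNA, and both are known targets of MYC and of mTORC1 signalling.

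The enzymes' transcripts were mostly a little more abundant in the LPA library. The log2 ratio, log2((LPA FPKM + 1)/(control FPKM + 1)), was above 0 for 9 of 10 members, against 50.2% of all genes tested, and its median was 0.18, against 0.0009 over all genes tested. ATIC, at the end of the IMP route, had the highest value (0.49) and PPAT, at its start, the lowest (-0.07). No member was at least 1.5-fold higher or lower in the LPA library, which 1.45% and 1.54% of all genes tested were. Of the 10 members, 9 lay inside the range of -0.51 to 0.49 that held 95% of all genes tested, and ATIC lay just above it.

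Depth was about 15700000 fragments in the LPA library and 16700000 in the control library, estimated from the lowest FPKM values. The member with the fewest fragments, PFAS, had about 472 in the LPA library and 424 in the control library. Intervals given below for a ratio of FPKM are exact binomial 95% intervals on such estimated fragments. They cover counting error only, not the split of fragments among isoforms and not the spread between cultures. How often such an interval excludes 1 among all genes tested was not computed. Of the 8 epithelial markers looked up, 7 reached 1 FPKM and VIL1 was listed at 0 in both libraries. The 8 summed to 3921 FPKM in the LPA library and 3000.4 FPKM in the control library; KRT18 had 741 and 442 FPKM and EPCAM 223 and 220 FPKM. Their part in the members' ratios was not tested. Of the 3 fibroblast and 3 immune markers 1 each reached 1 FPKM: COL1A1 was at 4.28 and 5.75 FPKM and CD68 at 2.85 and 2.64 FPKM in the LPA and control libraries, while COL1A2, DCN and PTPRC were listed at 0 in both. The 3 endothelial markers summed to 0.0924 FPKM in the LPA library and 0.105 FPKM in the control library.

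**Figure D1:**
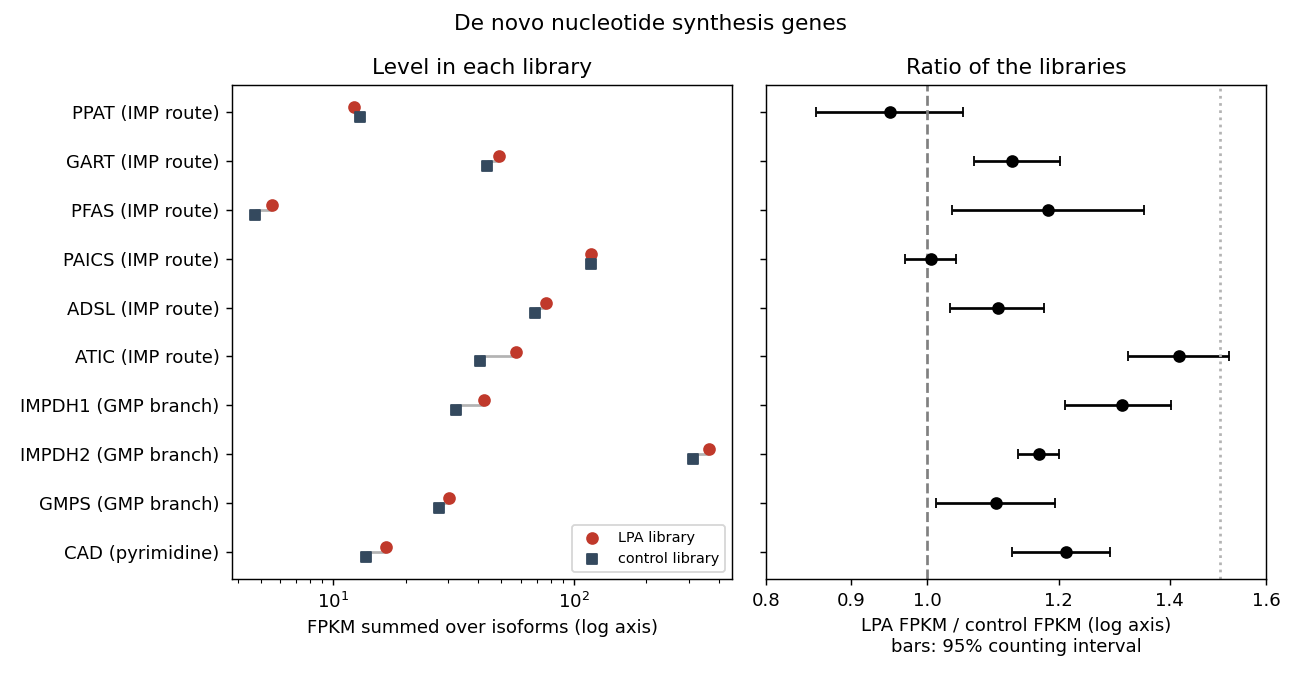
Left, FPKM of each member summed over its isoforms in the LPA library (circles) and the control library (squares), on a log axis. Right, the ratio of LPA FPKM to control FPKM on a log axis with its 95% counting interval, and a dotted line at 1.5-fold. Of the 10 intervals 8 lie above 1, and those of PPAT and PAICS span 1. The share of all genes tested with an interval off 1 was not computed.

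Transcript levels differed far more between the enzymes than between the libraries. FPKM is scaled by transcript length, so levels can be set side by side: the highest member, IMPDH2, stood 65.6-fold above the lowest, PFAS, in the LPA library and 66.4-fold above it in the control library. In the LPA library the order from high to low was IMPDH2, PAICS, ADSL, ATIC, GART, IMPDH1, GMPS, CAD, PPAT and PFAS. The control library had the same order except that GART stood above ATIC, so 8 members kept their rank. The ratio of ATIC to GART was 1.18 in the LPA library and 0.934 in the control library. Neighbours in this order have no replicate spread to be judged by; the deposited bounds of the leading isoforms were separate for IMPDH2 and PAICS in the LPA library (lower bound 263 FPKM against upper bound 149 FPKM) but overlapped for PAICS and ADSL (84.4 and 96.1 FPKM).

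PPAT, the amidophosphoribosyltransferase, takes the first committed step by moving an amide nitrogen from glutamine onto PRPP. It had 12.2 FPKM in the LPA library and 12.9 FPKM in the control library, from 1 isoform, NM_002703, and was the 1 member with a log2 ratio below 0. The ratio of its FPKM was 0.950 (counting interval 0.857 to 1.05). PAICS, which carries out the carboxylation of the imidazole ring and then adds aspartate, stood much higher, at 118 FPKM in the LPA library and 117 FPKM in the control library. Its ratio of 1.01 (0.970 to 1.04) also spans 1, so neither of these genes differed between the libraries beyond counting error. PAICS had 9.64 times the FPKM of PPAT in the LPA library and 9.11 times in the control library.

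These 2 genes, the members with the ratios nearest to 1 or below it, lie head to head on chromosome 4. With the adjustment for GC content described below, their log2 ratios were 0.09 and 0.10, beside 0.13 for both IMPDH2 and PFAS. The part of their position in the ratios was not tested. The deposited loci of PPAT (56393363 to 56435636, minus strand) and PAICS (56435749 to 56461368, plus strand) are 112 bases apart in hg38. The stretch between them is shown because it lies upstream of both genes. It is chr4:56435637-56435748 on the plus strand, from RefSeq on GRCh38.p14, with the GC box letters GGGCGG in capitals.
PPAT and PAICS interval: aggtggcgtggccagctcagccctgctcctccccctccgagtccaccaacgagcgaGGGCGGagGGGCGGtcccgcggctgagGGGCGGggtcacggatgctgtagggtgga
It holds 3 such boxes, and its GC content is 73.2%. Most PAICS reads were assigned to another start, however. The leading isoform, NM_001079524, held 98.7% of PAICS FPKM in the LPA library and 94.3% in the control library, and its GENCODE transcript starts at 56436152, 403 bases past the start of NM_006452 beside PPAT. The bases ahead of the starts in this downstream group are shown for comparison, chr4:56436010-56436137 on the plus strand.
PAICS downstream start: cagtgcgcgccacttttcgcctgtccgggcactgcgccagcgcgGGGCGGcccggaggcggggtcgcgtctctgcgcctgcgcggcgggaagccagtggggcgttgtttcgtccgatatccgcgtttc
This stretch holds 1 GC box. The isoforms from the upstream start summed to 1.53 FPKM in the LPA library and 6.34 FPKM in the control library, and those from the downstream start to 117 and 111 FPKM. NM_006452 itself had 1.53 FPKM (bounds 0 to 5.19) in the LPA library and 6.32 FPKM (0 to 13.9) in the control library, a log2 ratio of -1.53. Its bounds overlap widely, both reaching 0. In GENCODE, NM_006452 and the leading isoform NM_001079524 have the same coding length (1275 bases). NM_001079525, a minor isoform from the downstream start, has 1296 coding bases. The annotation holds 7 pseudogenes named after PAICS and 2 after PPAT, which can share reads with them.

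GART, PFAS and ADSL act between PPAT and ATIC, and their ratios were close to each other. GART joins 3 enzyme activities in its long protein. It had 48.9 FPKM in the LPA library and 43.4 FPKM in the control library, a log2 ratio of 0.17 at the 76.3 percentile of genes tested. PFAS, the glutamine-dependent amidotransferase that follows the transformylase of GART, was the least abundant member, with 5.58 FPKM in the LPA library and 4.72 FPKM in the control library, from 1 isoform, NM_012393. Its ratio was 1.18 with a wide counting interval of 1.04 to 1.35. ADSL, which splits fumarate off intermediates both on the way to IMP and on the way to AMP, had 76.4 and 69.2 FPKM, a ratio of 1.10 (1.03 to 1.18), and its leading isoform NM_000026 held 75.4 and 68.9 FPKM of these. All 3 genes were thus slightly higher in the LPA library and within the bulk of all genes. Their counting intervals lay above 1 (GART 1.07 to 1.20), but these leave out the spread between cultures.

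GART has a short form that ends within an intron and keeps only the glycinamide ribonucleotide synthetase part. The long isoform NM_000819 (3030 coding bases in GENCODE) had 33.0 FPKM in the LPA library and 28.2 FPKM in the control library. The short isoform NM_175085 (1299 coding bases) had 15.6 and 14.7 FPKM. Its share of GART FPKM was 31.9% in the LPA library and 33.9% in the control library, a difference of under 2 points, so the balance of long and short forms was nearly the same. GART lies 145 bases from the SON locus, which it faces head to head, and in GENCODE the 2 genes overlap by 874 bases on opposite strands. The library kit does not mark strand, so reads from such overlaps cannot be told apart. The same holds in GENCODE for PPAT, which overlaps a pseudogene over 21033 bases and a lincRNA gene over 560 bases. It also holds for ADSL and IMPDH2, which overlap antisense genes over 15627 and 93 bases, and for PFAS, which overlaps CTC1 over 478 bases. On its own strand ADSL also overlaps the protein-coding genes AL022238.4 over 43935 bases and SGSM3 over 19873 bases. The longer overlaps take in introns, so they do not give the share of reads affected.

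ATIC, the bifunctional enzyme that adds the last formyl group and closes the ring to IMP, had the largest ratio. It had 57.5 FPKM in the LPA library and 40.6 FPKM in the control library, from 1 isoform, NM_004044, on chromosome 2 (215311956 to 215349773). The ratio was 1.42 (1.32 to 1.52) and the log2 ratio of 0.49 lay at the 97.5 percentile of genes tested. The deposited bounds, 41.9 to 73.2 FPKM in the LPA library and 29.5 to 51.7 FPKM in the control library, overlapped, as they did for the leading isoform of all 10 members. The promoter windows of RefSeq, which run from 250 bases before to 50 bases after a start, were searched for the E-box CACGTG, the site of MYC and related factors, which reads the same on both strands. ATIC is shown because its window holds 2 of them, and the site near PPAT and PAICS because both windows share it. The capitals mark the E-box.
ATIC upstream site, chr2:215312001-215312030, plus strand: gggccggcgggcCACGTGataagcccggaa
ATIC downstream site, chr2:215312076-215312105, plus strand: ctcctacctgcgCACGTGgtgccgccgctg
PPAT and PAICS site, chr4:56435780-56435809, minus strand: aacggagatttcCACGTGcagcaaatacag
The ATIC sites begin at -46 and 30 from the RefSeq start at 215312059, and both lie within the deposited ATIC locus. The shared site begins at -182 from the PPAT start and at 41 from the RefSeq start of PAICS at 56435752, its upstream start. Isoforms from that start held 1.29% of PAICS FPKM in the LPA library and 5.40% in the control library. The window does not reach the downstream start, which held most of PAICS FPKM. The 8 members with RefSeq windows have 12 of them, some of which overlap. The E-box was in 3 of these 12 windows, with the PPAT and PAICS windows sharing 1 site, against 7.26% of 35116 windows in all. The GC box (GGGCGG, both strands) was in 9 of 12, against 45.0% of all windows. TGATGCAA (both strands), a form of the amino acid response element of ATF4 and its partners, was in none of the 12, against 0.866%. Binding at these sites was not measured, and their part in the ratios was not tested.

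**Figure D2:**
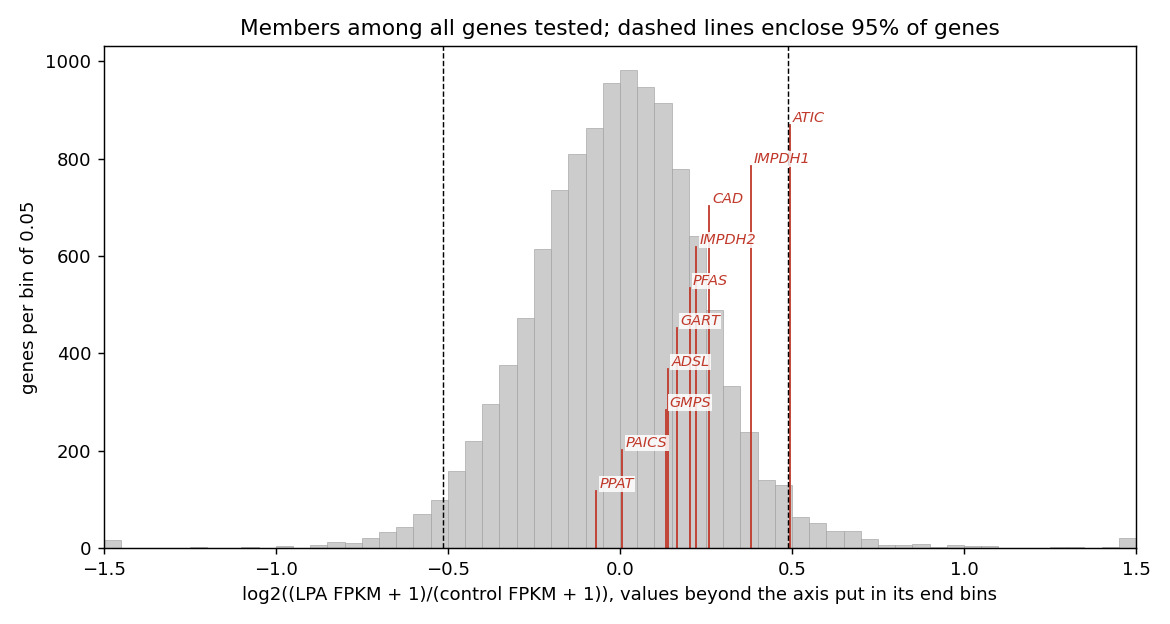
Histogram of the log2 ratio of 11688 genes in bins of 0.05, with the members as labelled lines. PPAT (-0.07) and PAICS (0.01) lie near the centre, the others to its right, and ATIC (0.49) at the dashed line that bounds the central 95% of genes.

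On the branch to GMP, all 3 members were higher in the LPA library, with a median log2 ratio of 0.22, against 0.15 for the 6 members of the IMP route. IMP dehydrogenase takes the rate-limiting step of this branch, and IMPDH2 is its form in proliferating cells, whereas IMPDH1 is known as the more constitutive form. IMPDH2, with 1 isoform, NM_000884, had 366 FPKM in the LPA library and 313 FPKM in the control library, a ratio of 1.17 (1.13 to 1.20). IMPDH1 had 42.4 and 32.4 FPKM, with the larger ratio of 1.31 (1.21 to 1.40) and a log2 ratio of 0.38 at the 94.6 percentile. IMPDH2 therefore stood 8.62-fold above IMPDH1 in the LPA library and 9.68-fold above it in the control library. GMPS, which aminates XMP to GMP with glutamine and has 1 isoform, NM_003875, had 30.3 and 27.5 FPKM, a ratio of 1.10 (1.01 to 1.19). The 2 dehydrogenase genes are paralogs, and 7 pseudogenes are named after IMPDH1, so reads may be shared.

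IMPDH1 had the most isoforms of any member, 10, of which 4 reached a mean of 1 FPKM. The higher level in the LPA library sat in the leading isoform, NM_001142573, with 30.1 FPKM (bounds 20.3 to 40.0) in the LPA library and 17.8 FPKM (11.1 to 24.4) in the control library. In GENCODE it starts 4040 bases inside the gene from the start of NM_183243. NM_183243 had 6.98 FPKM (2.25 to 11.7) in the LPA library and 9.57 FPKM (4.66 to 14.5) in the control library. The 2 isoforms thus lay on opposite sides of 0, with log2 ratios of 0.73 and -0.41, and each pair of bounds overlapped. The other two that passed the filter were NM_001304521, with 2.61 FPKM in the LPA library and 1.97 FPKM in the control library, and an isoform nearest to NM_000883, with 1.36 and 1.33 FPKM. Summed over isoforms by start, the internal start had 30.1 FPKM in the LPA library and 19.2 FPKM in the control library, and the upstream start 12.3 and 13.2 FPKM. The internal start held 71.1% of IMPDH1 FPKM in the LPA library and 59.3% in the control library.

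CAD carries the opening steps of pyrimidine synthesis, carbamoyl phosphate synthetase, aspartate transcarbamylase and dihydroorotase, on 1 long protein. The gene, on chromosome 2 (27217390 to 27243792), had 16.6 FPKM in the LPA library and 13.7 FPKM in the control library. The ratio was 1.21 (1.13 to 1.29) and the log2 ratio 0.26, at the 87.3 percentile. Its 2 isoforms share a start and differ by 1 exon, and they showed the largest difference in share of any member. The shorter, NM_001306079, had 12.7 FPKM (bounds 8.70 to 16.6) in the LPA library and 7.26 FPKM (4.48 to 10.0) in the control library. The longer, NM_004341, had 3.93 FPKM (1.75 to 6.11) in the LPA library and 6.45 FPKM (3.91 to 8.98) in the control library. The shorter isoform made up 76.3% of CAD FPKM in the LPA library and 53.0% in the control library, 23.4 points more. Both pairs of bounds overlapped.

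The exon that sets the CAD isoforms apart is shown because the deposited lengths of the isoforms, 7114 and 6925 nt, differ by exactly its length. It is exon 13 of the GENCODE transcript of NM_004341, chr2:27226131-27226319 on the plus strand, from GENCODE 29. It is 189 bases long, all of them coding, and its 63 codons leave the reading frame intact where it is skipped.
CAD exon 13: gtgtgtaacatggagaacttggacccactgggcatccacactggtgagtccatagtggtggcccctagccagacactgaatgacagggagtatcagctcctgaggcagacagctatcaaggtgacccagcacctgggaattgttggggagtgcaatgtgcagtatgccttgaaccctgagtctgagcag
The coding length is 6675 bases with the exon and 6486 bases without it. How many reads lay over this exon and its junctions is not known from FPKM.

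**Figure D3:**
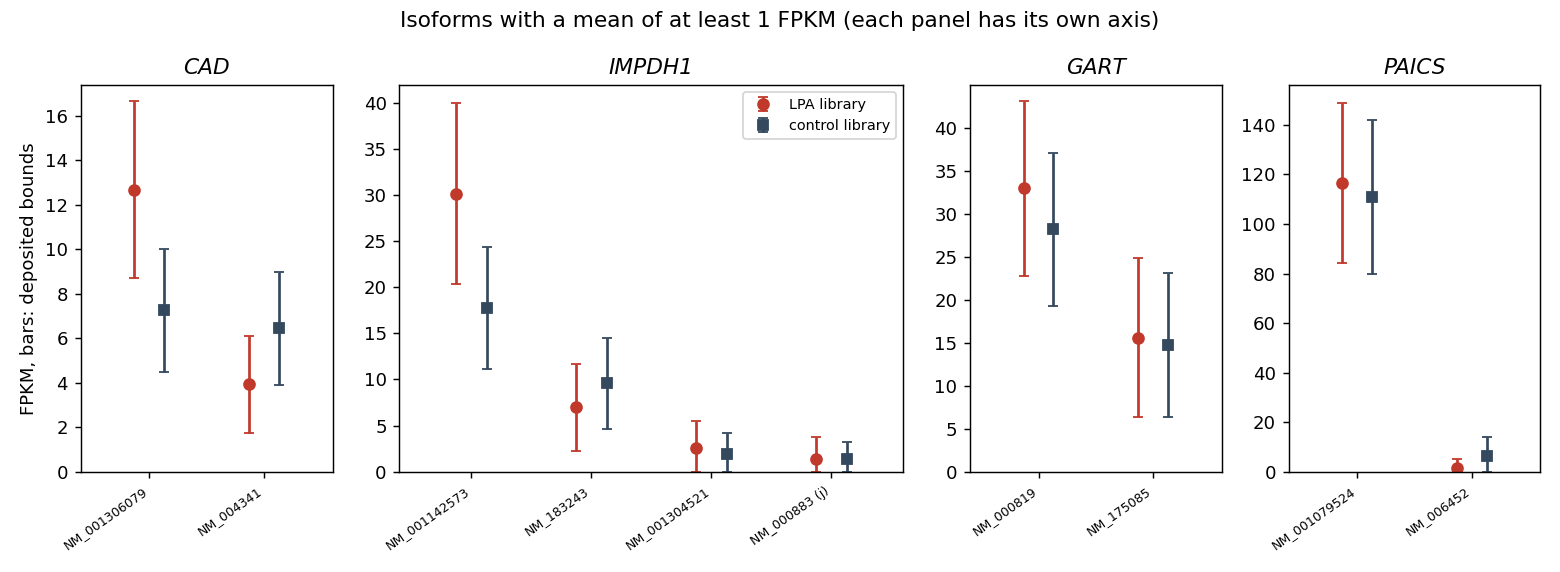
FPKM of the isoforms of CAD, IMPDH1, GART and PAICS with a mean of at least 1 FPKM, in the LPA library (circles) and the control library (squares), with the deposited lower and upper bounds as bars and a separate linear axis for each gene. The pairs of CAD isoforms (12.7 and 7.26 FPKM for NM_001306079, 3.93 and 6.45 FPKM for NM_004341) lie on opposite sides, and all pairs of bounds overlap.

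Over all members, 16 isoforms had a mean of at least 1 FPKM. Of these, 2 were at least 1.5-fold higher in the LPA library (the leading isoforms of CAD and IMPDH1), against 9.48% of all isoforms tested, and 2 were at least 1.5-fold lower (NM_004341 of CAD and NM_006452 of PAICS), against 8.67%. None of the 16 had separate deposited bounds, against 4.61% of all isoforms tested. Of the 29 member isoforms, 5 were listed at 0 in both libraries, among them a copy of GART on an alternative contig of chromosome 21. The class code j, for a splice pattern unlike the reference, marked 4. In IMPDH1, 2 isoforms of this class were nearest to NM_000883: the one with a mean over 1 FPKM, at 1.36 FPKM in the LPA library and 1.33 FPKM in the control library, and one below the filter (mean 0.616 FPKM), at 1.23 FPKM (bounds 0 to 3.47) in the LPA library and listed at 0 in the control library. The isoforms of this class in PAICS and GART were listed at 0 in the LPA library and at 0.0232 and 0 FPKM in the control library. The minor ADSL isoform NM_001123378 had 0.926 and 0.374 FPKM in the LPA and control libraries.

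The ratio of a gene moved with the base composition of its transcript in these libraries. Among all genes tested the median log2 ratio was -0.21 in the lowest of 20 bins of GC content and 0.10 in the bin from 51.8% to 53.5% GC, and in the highest bin, from 65.0% GC, it was 0.0009. The members lie between 37.9% and 61.0% GC, none in the lowest bin, which ends at 37.6%, or the highest. PPAT (37.9% GC), GMPS (40.9%) and PAICS (42.3%) lie at the low end, ADSL (45.3%), GART (46.3%), ATIC (49.9%) and IMPDH2 (52.3%) in the middle, and CAD (57.9%), PFAS (58.2%) and IMPDH1 (61.0%) at the high end. The median of the GC bin was then subtracted, a setting chosen after seeing the data, which puts the median of the genes tested in each bin at 0. With it the log2 ratio was above 0 for all 10 members, PPAT at 0.09 and PAICS at 0.10 among them. The members' median was 0.16. The share of all genes tested above 0 with this adjustment was not computed. ATIC (0.43) and IMPDH1 (0.32) stayed the highest. GMPS had 0.27 with the adjustment and 0.13 without it, and IMPDH2 0.13 and 0.22. For PAICS, the GENCODE transcript of the leading isoform has 6480 exon bases against a deposited length of 3318 nt. Its GC content and adjusted value may therefore not be those of the isoform measured. The part of GC content in the ratios was not tested.

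**Figure D4:**
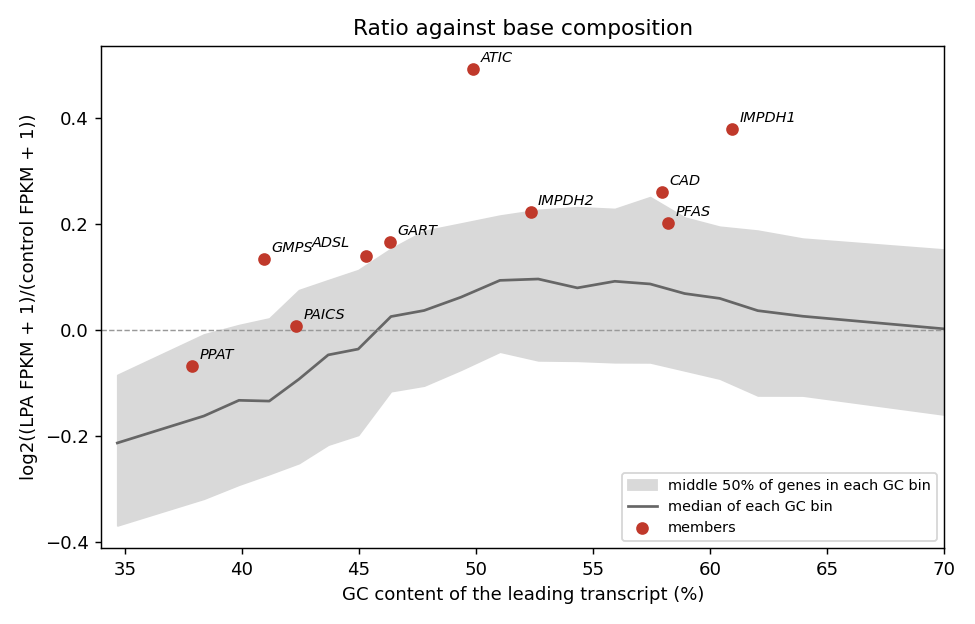
Log2 ratio of each member (points) against the GC content of its leading transcript, over the median (line) and the middle 50% (band) of all genes in 20 GC bins. PPAT and PAICS lie above the line at low GC content, and ATIC (0.49 at 49.9%) is the farthest above it.

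The genes that complete the routes were divided. PRPP, the substrate of PPAT, is made by PRPS1 and PRPS2: PRPS1 had 26.4 FPKM in the LPA library and 21.4 FPKM in the control library, and PRPS2 14.8 and 13.1 FPKM. Of the genes of their associated, inhibitory proteins, PRPSAP1 was nearly level, at 18.5 and 19.1 FPKM (log2 ratio -0.05). PRPSAP2 was slightly lower in the LPA library, at 19.2 and 22.5 FPKM (-0.22). The 4 genes had log2 ratios between -0.22 and 0.29, none at least 1.5-fold apart. After CAD, the mitochondrial dihydroorotate dehydrogenase DHODH had 5.35 FPKM in the LPA library and 3.59 FPKM in the control library, a log2 ratio of 0.47 at the 97.2 percentile. UMPS, which makes UMP, had 7.16 and 6.54 FPKM. Of the CTP synthetases, CTPS1 had 17.0 FPKM in the LPA library and 12.3 FPKM in the control library (log2 ratio 0.44), whereas CTPS2 had 4.05 and 4.73 FPKM. With CAD at 0.26, all genes of the path to UMP and CTP but CTPS2 had log2 ratios above 0, as had 50.2% of all genes tested.

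On the AMP side, ADSS, which adds aspartate to IMP, had 15.2 FPKM in the LPA library and 14.6 FPKM in the control library, and its relative ADSSL1 2.22 and 1.57 FPKM. The GMP reductase genes, which lead back to IMP, differed from each other: GMPR had 22.7 and 17.5 FPKM, the highest log2 ratio of this list (0.36), and GMPR2 38.1 and 39.9 FPKM. The AMP deaminase genes AMPD2 (19.0 and 17.7 FPKM) and AMPD3 (6.25 and 5.02 FPKM) were both slightly higher in the LPA library. Their leading isoforms differed more. Among the leading isoforms of the 69 genes tested in these further lists, only these had deposited bounds that did not overlap. Over all isoforms tested, leading or not, 4.61% had separate bounds. NM_001257361 of AMPD2 had 12.9 FPKM (bounds 8.48 to 17.4) in the LPA library and 5.44 FPKM (2.63 to 8.26) in the control library. NM_001172431 of AMPD3 had 3.69 FPKM (2.23 to 5.16) in the LPA library and 0.587 FPKM (0.0112 to 1.16) in the control library. Of the 6 genes, 5 were above 0, against 50.2% of all genes tested. The list's median was 0.18, the same to 2 decimals as that of the members.

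Suppliers of the ring atoms had higher medians than the members. In the folate list, which provides formyl groups to GART and ATIC, 4 of 6 genes tested were above 0 and the median was 0.24. Of all genes tested, 50.2% were above 0. MTHFD1L, the mitochondrial formate-producing enzyme, had 40.4 FPKM in the LPA library and 24.5 FPKM in the control library, and its log2 ratio of 0.70 put it past 1.5-fold. The leading isoform of MTHFD1L, NM_001242767, was nearly level, at 11.0 FPKM (bounds 5.49 to 16.6) in the LPA library and 10.8 FPKM (6.42 to 15.2) in the control library. With only isoforms that match the reference (class code =), MTHFD1L was not past 1.5-fold. MTHFD2, the most abundant of the list, had 129 and 104 FPKM, and MTHFD2L the lowest log2 ratio (-0.22, with 1.56 and 1.98 FPKM). With the GC adjustment MTHFD2L (37.0% GC) was at -0.007. ALDH1L1 and ALDH1L2 stayed under 1 FPKM and were not tested. In the glutamine and aspartate list 4 of 5 genes tested were above 0, with a median of 0.35. The glutamine transporter SLC1A5 led with 222 FPKM in the LPA library and 152 FPKM in the control library (log2 ratio 0.54), and glutamine synthetase, GLUL, had 18.1 FPKM in both. GLS2 was not tested.

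Salvage enzymes, which recycle bases and nucleosides, had 7 of 10 genes above 0, against 50.2% of all genes tested, and a median of 0.15. The uridine-cytidine kinase UCK2 was highest (18.6 FPKM in the LPA library and 14.8 FPKM in the control library, log2 ratio 0.31), the deoxycytidine kinase DCK lowest (4.92 and 6.93 FPKM, -0.42), and the adenine phosphoribosyltransferase APRT the most abundant (324 and 294 FPKM). Nucleotide kinases had 7 of 11 above 0 and a median of 0.05, from CMPK1 (31.5 and 36.8 FPKM) to the thymidylate kinase DTYMK (60.4 and 50.8 FPKM). With the GC adjustment the log2 ratio of CMPK1 (37.8% GC) was -0.06 and that of DCK (38.8% GC) -0.26. The most abundant, NME2, had 1869 and 1614 FPKM and can share reads with its neighbour and near relative NME1. Enzymes of deoxynucleotide supply were the list with a median below 0 (-0.14, and -0.03 with the GC adjustment), with 5 of 8 below 0. In it RRM2B, a p53-inducible subunit of ribonucleotide reductase, was more than 1.5-fold lower in the LPA library (9.88 and 16.2 FPKM, log2 ratio -0.66). Its transcript has 41.3% GC, and with the GC adjustment its log2 ratio of -0.53 was inside 1.5-fold. The leading isoform of RRM2B, NM_001172478, was instead higher in the LPA library, so the lower gene sum lay in the other isoforms. The deposited bounds of this leading isoform overlapped, with a lower bound of 5.07 FPKM in the LPA library and an upper bound of 9.17 FPKM in the control library. The subunit RRM2, the most abundant, had 41.8 and 39.3 FPKM and the deaminase DCTD was highest (30.8 and 28.5 FPKM).

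Breakdown enzymes had 7 of 10 genes tested above 0 and a median of 0.12. The uridine phosphorylase UPP1 was past 1.5-fold, with 19.0 FPKM in the LPA library and 11.8 FPKM in the control library (log2 ratio 0.64). NT5C3A was lowest (15.2 and 16.9 FPKM), NT5C3B most abundant (73.4 and 68.2 FPKM), and XDH and DPYD were not tested. Among known regulators, ATF4, which drives genes of amino acid and folate metabolism, was past 1.5-fold (730 FPKM in the LPA library and 449 FPKM in the control library, log2 ratio 0.70). MYC had 143 FPKM in the LPA library and 158 FPKM in the control library, MTOR 5.17 and 3.73 FPKM, and the kinase gene RPS6KB1, whose product phosphorylates CAD, 12.8 and 14.9 FPKM, the lowest log2 ratio of its list (-0.21). MAX had 31.5 and 28.1 FPKM. With the GC adjustment the log2 ratios of RPS6KB1 (36.9% GC) and NT5C3A (36.0% GC) were 0.005 and 0.06. In all these lists together, 45 of 69 genes tested were above 0, against 50.2% of all genes tested. Their median log2 ratio was 0.10, against 0.0009 over all genes tested. Of the 69, MTHFD1L, UPP1 and ATF4 were at least 1.5-fold higher in the LPA library, against 1.45% of all genes tested, and RRM2B at least 1.5-fold lower, against 1.54%. RRM2B was not past 1.5-fold with the GC adjustment, nor UPP1 and RRM2B with a pseudocount of 5 FPKM. MTHFD1L was not past it with isoforms of class code = only. With the leading isoform in place of the gene, ATF4 alone of these genes was past 1.5-fold.

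**Figure D5:**
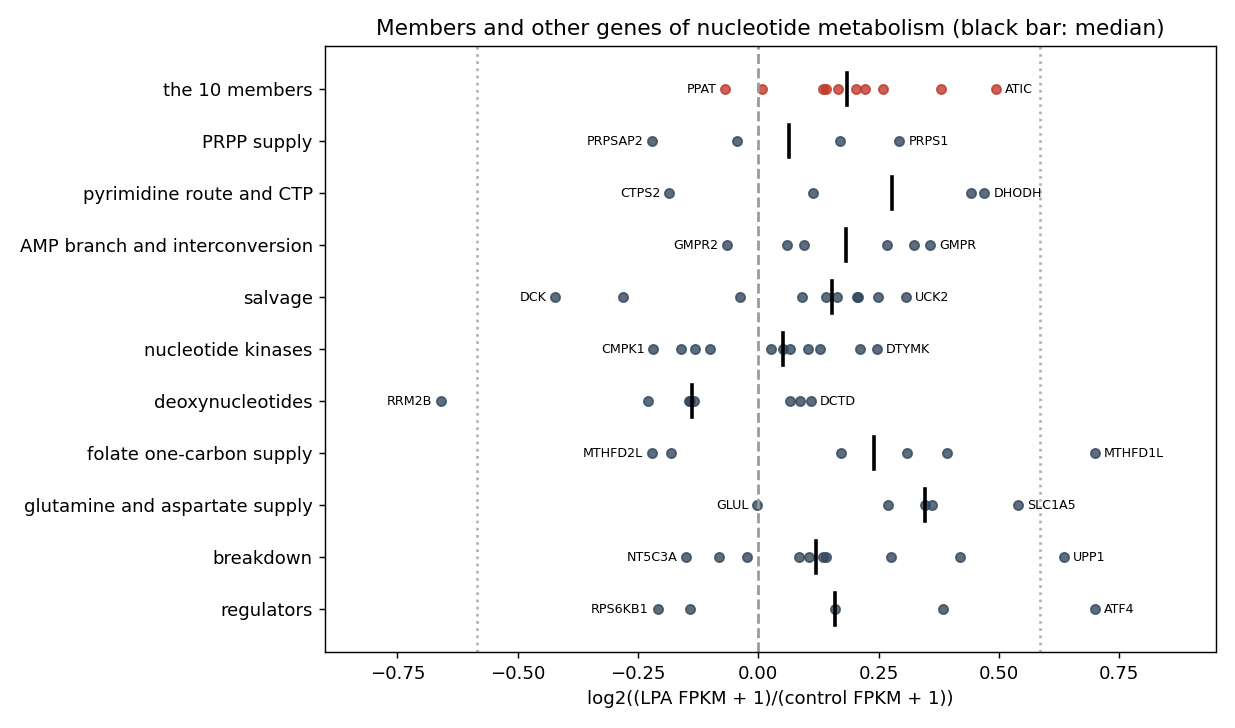
Log2 ratio of the 10 members (top row) and of the genes tested in 10 further lists of nucleotide metabolism, with the lowest and highest gene of each named, a black bar at the median and dotted lines at 1.5-fold. The medians lie between -0.14 (deoxynucleotides) and 0.35 (glutamine and aspartate supply), and that of the members is 0.18.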

How the data were processed

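Libraries were prepared with the TruSeq V2 kit from poly-A RNA of Trizol extracts, per the labels' protocols. Cuffdiff 2.2.0, Cufflinks, TopHat2 2.0.12, bcl2fastq 2.16.0.10 and the build hg38 are listed in the submitters' processing notes. Their parameters and the scaling between libraries were not given in the sources used here. Per isoform, the authors deposited FPKM with a lower and an upper bound whose level is not stated, per the file headers. All 29 member isoforms had the status OK in both libraries, 16 other isoforms with the status HIDATA in the LPA library were left out, and 11 with the status FAIL were kept as deposited in gene sums but not counted among the isoforms tested.

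Isoform FPKM were summed per symbol, and genes with a mean of at least 1 FPKM (the genes tested) were set against fixed folds, with no test between libraries. The FPKM of all isoforms used summed to 709125 in the LPA library and 717768 in the control library. The worth of 1 fragment was read from the lowest FPKM multiplied by length of genes with 1 isoform over 2000 nt. GC content came from GENCODE 29 transcripts for 99.2% of genes tested and all members. The members and lists were chosen with earlier results of these data known. All members were named, as were isoforms with a mean of at least 1 FPKM. Of other lists, the highest and lowest ratio, the most abundant gene and genes at least 1.5-fold apart were named, and the PRPP, pyrimidine and AMP lists in full. Minor isoforms were named after their values were seen. Code was tested on simulated data in Python 3.11.15 with scipy 1.17.1.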

Additional observations from a re-analysis of the deposited data

How the results depend on the processing

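Each member's log2 ratio was recomputed under 10 alternatives: pseudocounts of 0.1 and 5 FPKM, no filter and a filter at 5 FPKM, equal FPKM sums, centring on the median of all genes, the leading isoform in place of the gene, isoforms with class code = only, isoforms of at least 1000 nt only, and GC adjustment, the last added after seeing the data. Of 100 such values, 93 moved by less than the counting interval. Part of these was fixed in advance. All members had a mean above 5 FPKM and no isoform under 1000 nt. No filter, the filter at 5 FPKM and the length limit therefore could not move any member's value. For the 5 genes with 1 isoform, the leading isoform and class code settings could not either. The members above 0 numbered 9 or 10 and their median lay between 0.14 and 0.21. The count at least 1.5-fold apart was 0 except with the leading isoform, where it was 2 (CAD 0.73 and IMPDH1 0.73), since that setting leaves out the isoforms that were lower in the LPA library. PPAT was above 0 with GC adjustment (0.09). Of the genes tested in other lists, 4 were at least 1.5-fold apart (MTHFD1L, UPP1, ATF4 and RRM2B). With a pseudocount of 5 FPKM the count was 2 (MTHFD1L and ATF4), with GC adjustment 3 (without RRM2B) and with the leading isoform 6, of which ATF4 alone is among the 4. With class code = isoforms only, 4 again, AMPD3 replaced MTHFD1L, and with isoforms of at least 1000 nt NT5C was added (5). In the other 5 settings the 4 genes were the same. For these lists, all settings but a pseudocount of 0.1 FPKM and centring were added after seeing the data. No paired analysis was possible because each group has 1 library, and for the same reason no replicate could be left out. The member with the fewest estimated fragments, PFAS (about 472 in the LPA library and 424 in the control library), has the widest counting interval of its ratio.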
